A study of Mus musculus with 12 samples.

Results

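Small nucleolar RNAs and the related small Cajal body RNAs were followed in the hippocampus of mice exposed to a mixture of Gulf War toxicants. Of the 41743 genes in the table, 150 carried a symbol beginning with Snord, Snora or Scarna, and 29 of these were members, chosen by a value above 0 in at least 6 of the 12 deposited columns. The members were 11 C/D box RNAs (of 99 by name), 13 H/ACA box RNAs (of 42) and 5 Cajal body RNAs (of 9). Choosing them by detection over all columns uses the same values that the groups are compared on. Ratios over all C/D and H/ACA genes by name, and over the genes of each class that were not members, are therefore given beside those over the members.

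Hippocampal RNA came from male C57Bl/6 mice aged 12 weeks. The toxicant mice had received daily weekday subcutaneous injections for 2 weeks that gave 7.5 mg/kg of DEET, 12.5 mg/kg of chlorpyrifos and 2.5 mg/kg of pyridostigmine bromide, and the control mice had received vehicle. Pyridostigmine and chlorpyrifos both inhibit cholinesterase, and DEET is an insect repellent. The design text states 6 different mice in each group and collection at the end of the exposure. The columns of control 4 and control 5 were identical in every gene and were counted as 1 sample, named control 4-5, which left 5 control and 6 toxicant libraries.

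C/D box RNAs guide 2′-O-methylation of ribosomal RNA through the box C and box D motifs near their ends, bound by fibrillarin and its partners. H/ACA box RNAs guide pseudouridylation with the dyskerin complex and end a few bases after an ACA triplet. Cajal body RNAs carry one or both kinds of domain and modify the RNAs of the spliceosome. In mammals most of them are released from introns of host genes, many of which encode ribosomal proteins or are noncoding snoRNA host genes. Mature forms carry no poly(A) tail, while these libraries were made from RNA selected on oligo d(T) beads. A table of gene values does not tell mature snoRNA apart from retained host sequence or longer precursors.

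The sequences of the 8 members that the results below turn on are shown first, so that their ends and their likeness can be seen. They are the GENCODE M21 transcripts on GRCm38, written 5′ to 3′. Capitals mark the box C motif TGATGA where it lies in the first 20 bases, the box D motif CTGA in the last 20 bases, or the ACA triplet in the last 8 bases. The first 3 are C/D box RNAs. Snord91a lies at chr11:74905424-74905516 on the plus strand, in an intron of Tsr1, a gene for a factor of small ribosomal subunit maturation. Snord15b lies at chr7:99479563-99479707 on the minus strand, within Rps3 and overlapping an annotated exon. Snord22 lies at chr19:8725866-8725991 on the plus strand, overlapping an exon of the noncoding host gene Snhg1.
Snord91a: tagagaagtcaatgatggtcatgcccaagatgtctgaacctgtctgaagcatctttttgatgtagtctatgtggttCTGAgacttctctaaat
Snord15b: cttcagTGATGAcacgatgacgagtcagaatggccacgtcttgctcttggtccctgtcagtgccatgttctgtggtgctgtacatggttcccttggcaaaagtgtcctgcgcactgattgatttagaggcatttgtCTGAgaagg
Snord22: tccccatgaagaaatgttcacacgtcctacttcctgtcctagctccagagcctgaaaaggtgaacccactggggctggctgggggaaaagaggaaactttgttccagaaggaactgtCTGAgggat

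The next 3 are H/ACA box RNAs. Snora73b, at chr4:132352322-132352526 in an intron of Snhg3, and Snora73a, at chr4:132352775-132352979 overlapping an exon of the same gene, both lie on the minus strand and are copies of U17, an RNA needed for the cleavage of ribosomal precursor RNA. They are identical at 198 of 205 positions (96.6%), so reads of one could be assigned to the other. Snora57 lies at chr19:8888538-8888685 on the minus strand, and no same-strand host gene held it.
Snora73b: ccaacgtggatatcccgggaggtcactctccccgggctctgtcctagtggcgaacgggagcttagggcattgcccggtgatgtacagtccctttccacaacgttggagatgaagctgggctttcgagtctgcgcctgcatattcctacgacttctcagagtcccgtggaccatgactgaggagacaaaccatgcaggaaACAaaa
Snora73a: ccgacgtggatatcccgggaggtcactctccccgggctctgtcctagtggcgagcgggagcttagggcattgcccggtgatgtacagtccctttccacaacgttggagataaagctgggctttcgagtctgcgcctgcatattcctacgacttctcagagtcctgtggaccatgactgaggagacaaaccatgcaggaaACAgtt
Snora57: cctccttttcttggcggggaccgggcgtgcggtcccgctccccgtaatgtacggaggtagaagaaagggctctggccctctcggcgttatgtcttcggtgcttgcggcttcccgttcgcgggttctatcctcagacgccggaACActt

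The last 2 are Cajal body RNAs. Scarna2, a C/D type guide for the spliceosomal RNAs, is 414 bases long, and its last 100 bases are shown, from chr3:108554338-108554437 on the minus strand. Scarna13, an H/ACA type guide, lies at chr12:105031075-105031349 on the minus strand, in an intron of Snhg10.
Scarna2: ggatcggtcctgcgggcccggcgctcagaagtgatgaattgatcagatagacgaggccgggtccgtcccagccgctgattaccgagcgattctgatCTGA
Scarna13: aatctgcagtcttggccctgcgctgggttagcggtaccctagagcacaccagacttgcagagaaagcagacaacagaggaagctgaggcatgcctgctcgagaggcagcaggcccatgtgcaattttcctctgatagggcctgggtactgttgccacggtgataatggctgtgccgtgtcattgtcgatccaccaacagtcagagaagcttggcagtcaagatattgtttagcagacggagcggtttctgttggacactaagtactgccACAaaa

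The depth behind each value was recovered from the RPKM steps (RPKM is reads per kilobase of gene model, scaled to depth). It was 21.5 M to 34.8 M reads per library, with 78.4% to 89.5% on annotated genes in control and 76.8% to 83.8% in toxicant libraries. Hippocampal neuron markers were detected in each library, with Camk2a at 291 to 480, Slc17a7 at 184 to 325 and Prox1 at 7.26 to 13.6 RPKM. The choroid plexus marker Ttr ranged from 12.9 to 2836 RPKM. For Snord91a, 93 bases long, 1 read was worth 0.309 to 0.501 RPKM depending on the library. All 319 member values multiplied by gene length were whole reads within 0.05. Most members therefore rest on few reads: their totals over the 11 libraries ran from 6 to 657 with a median of 20, and 14 of the 29 had fewer than 20. A library at 0 reads still allows up to 3, and intervals on read counts cover counting error only. In bulk tissue, fewer cells of a type and less RNA per cell cannot be told apart.

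**Figure D1:**
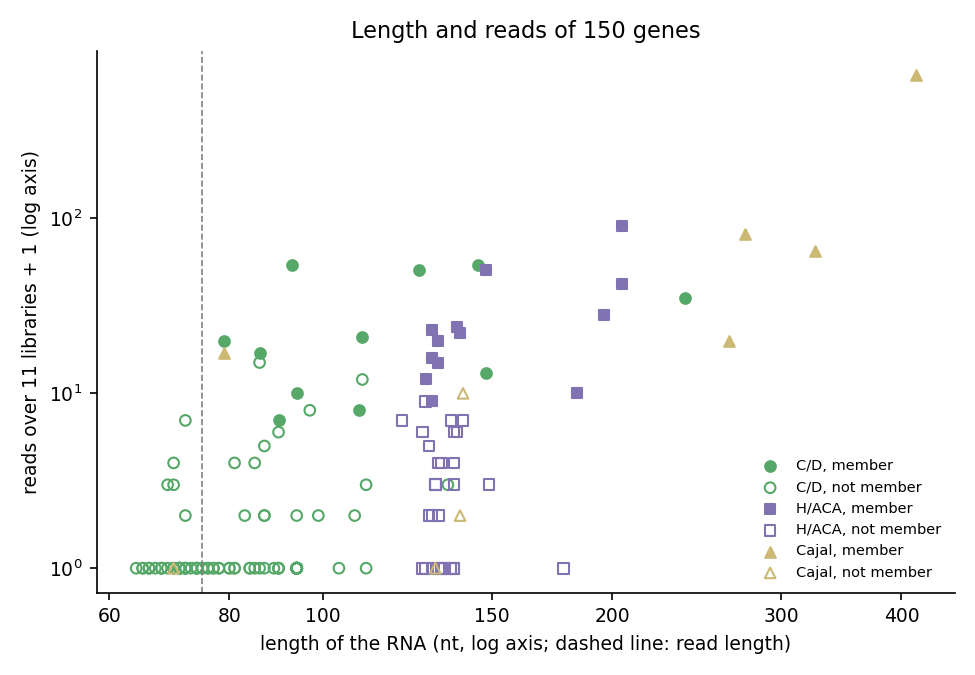
Length in nucleotides of every gene by name on the x axis and its total reads over the 11 libraries plus 1 on the y axis, both log axes, one point per gene, filled for members and open for the rest; the dashed line is the read length. All 11 C/D members were at least 75 nt long, the read length, as were 55 of the 88 C/D genes that were not members.

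By the median, members were longer than the other genes of their class, and C/D members had more abundant hosts. The median length was 109 nt for C/D members and 81 nt for other C/D genes, 138 against 132 nt for H/ACA genes, and 275 against 135 nt for Cajal body genes. The host genes of C/D members had a median of 38.5 RPKM and those of other C/D genes 8.73 RPKM, whereas the order was the other way for H/ACA genes, at 8.94 and 14.3 RPKM. These are descriptions, since detection chose the members. Just inside the limit, 7 members were above 0 in exactly 6 columns, and just outside it 7 genes were above 0 in 5 columns (Scarna3a, Snord14d, Snora5c, Snord49a, Snord7, Snord8 and Snora78, with 6 to 14 reads each). Of the 121 genes by name that were not members, 80 had no read at all. Genes of the 2 imprinted, brain-enriched C/D clusters were looked for by name (Snord113, Snord114, Snord115 and Snord116 copies, Snord64 and Snord107). The table held 19, all of them Snord116 copies, Snord64 or Snord107 on chromosome 7. They had 1 read in all and gave 0 members. No gene named Snord113, Snord114 or Snord115 was in the table, so nothing is said of those.

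The motifs that define each class were searched for at the ends of the members. Box D was found in 11 of 11 C/D members and 86 of 88 other C/D genes, the strict box C motif in 8 of 11 and 62 of 88, and the ACA triplet in 13 of 13 H/ACA members and 27 of 29 other H/ACA genes. Snord91a and Snord22 were among the members without TGATGA in the first 20 bases. The search read the transcript strand only. Among 4033 other small RNA transcripts of 60 to 420 nt, 0.174% held box C in the same window, 7.29% box D, 0.0248% both, and 11.5% the ACA triplet.

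The summed C/D signal was higher in the toxicant mice. In control libraries the 11 C/D members took 56.5, 45.6, 32.1, 44.5 and 77.5 reads per 100 M (libraries 1, 2, 3, 4-5 and 6), a mean of 51.2 ± 17.04 (SD, n = 5). In toxicant libraries they took 60.5 at the lowest, 142 at the median and 189 at the highest, a mean of 132 ± 49.2 (SD, n = 6). Of the 6 toxicant libraries, 5 lay above the highest control and toxicant 1 lay among the controls. The ratio of the means was 2.58, and it was 2.09 without Snord22 and Snord15b. Over all 99 C/D genes by name the ratio was 2.23, and 4 of 6 toxicant libraries lay above the highest control, control 6 at 118 reads per 100 M. These totals rest on 78 control and 201 toxicant reads, and no test was made on them because the members were chosen with results known.

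Among the members, the H/ACA and Cajal body totals differed less between the groups, and whether the classes differ from each other was not tested. For C/D and H/ACA genes by name that were not members, the order was the other way. Their ratio was 1.33 for C/D (31 control and 40 toxicant reads) and 2.96 for H/ACA (16 and 51 reads). For Cajal body genes that were not members it was 0.69 (6 and 4 reads). The 13 H/ACA members took 77.7, 61.9, 136.3, 82.1 and 106.2 reads per 100 M in control libraries and 83.8 to 214 in toxicant libraries, with a toxicant median of 135. Their means were 92.8 ± 29.0 (SD, n = 5) and 142 ± 49.3 (SD, n = 6), and the groups overlapped. The ratio of 1.53 was 1.69 over all 42 H/ACA genes by name and 1.20 without the U17 copies Snora73a and Snora73b. The 5 Cajal body members took 252 ± 53.1 (SD, n = 5) and 306 ± 49.6 (SD, n = 6) reads per 100 M, a ratio of 1.22, with overlapping groups. Scarna2 alone gave 79.7% of the Cajal body reads in control and 77.5% in toxicant libraries. Outside these names, the annotation classes 58 further detected genes as snoRNA or scaRNA, and their summed ratio was 1.39.

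**Figure D2:**
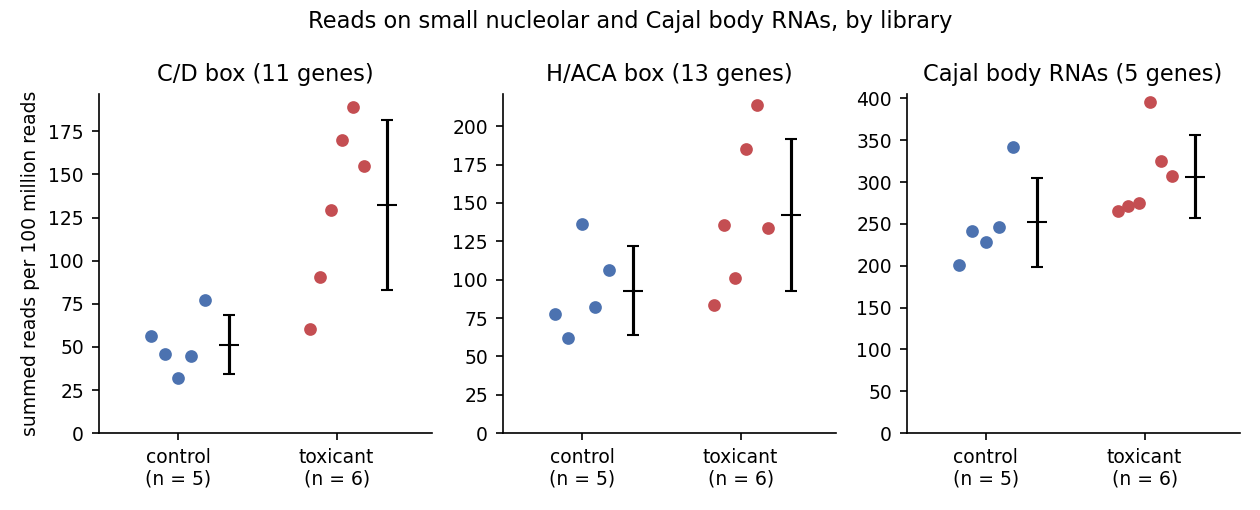
Summed reads per 100 M reads on the y axis for the C/D, H/ACA and Cajal body members, one point per library for 5 control and 6 toxicant libraries, with the mean and SD. For C/D members 5 of 6 toxicant libraries lie above the highest control at 77.5, while the groups overlap in the other classes.

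Gene by gene, no member passed the adjusted threshold of 0.05. Values were tested as log2(RPKM + 0.5) with limma over the 13493 genes that averaged 0.5 RPKM or more, which 17 of the 29 members reached (6 C/D, 7 H/ACA, 4 Cajal body). Of these, 6 had a control mean under 0.5 RPKM and 0 had a toxicant mean under it, so the filter itself favours members that are high in the toxicant group. With limma's Benjamini-Hochberg adjusted p, 0 members were higher and 0 lower, against 0% of all genes in each direction, and the smallest adjusted p of a member was 0.153. At an unadjusted p under 0.05, 3 members were higher (Snord91a, Snord15b and Snora73b) and 0 lower, against 3.33% of all genes higher and 17% lower. Snord91a had been chosen for being higher, and Snord15b, with a control mean of 0.467 RPKM, passed the filter through the toxicant group, so nothing is read from that count. Voom, limma's method for counts, on the recovered reads also called 0 members. In 1 member, Snord91a, each toxicant library exceeded the highest control, against 0.111% of all genes, and in 0 members each fell below the lowest control, against 2.03%. Because Snord91a had been chosen for this pattern, nothing is read from that count of 1 either.

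Over all 29 members with no filter, 24 had a log2 difference above 0, namely 11 of 11 C/D, 9 of 13 H/ACA and 4 of 5 Cajal body members. With reads pooled within each group, the rate was higher in the toxicant group for 23 of the 29 members. Among C/D members that held for 10 of 11, so their direction depends on the measure. Of the genes tested, an unlike set that holds 17 of the members, 30% lay above 0 and 70% below. Of those 17 members, 15 lay above 0. Detection itself can favour members high in the toxicant group: 6 members were above 0 in under 3 control libraries and 1 in under 3 toxicant libraries. The counts and medians here are therefore a description. The median log2 difference was 0.48 for C/D, 0.26 for H/ACA and 0.06 for Cajal body members, beside -0.11 for all genes tested. After median-ratio scaling, which moved the all-gene median to 0.00, the class medians were 0.55, 0.31 and 0.14. The fraction of a library's reads on genes was lower on average in the toxicant group (80.8% against 85.4%). With that fraction as covariate the C/D median was 0.56, H/ACA 0.06 and Cajal body 0.04, with 10 of 11, 7 of 13 and 3 of 5 above 0. Its part in these differences was otherwise not tested.

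Control 2 had 78.4% of its reads on genes, where the other controls had 83.1% to 89.5%. Without it, limma called 3 members higher at an adjusted p under 0.05, namely Snord91a, Snord89 (adjusted p = 0.0262) and Snord17 (adjusted p = 0.0328), and 0 lower, of 18 tested. Snord91a had been chosen for this pattern. Snord89 and Snord17 pass the filter there only through the toxicant group: the other controls were at 0 to 0.311 RPKM for Snord89, and Snord17 missed the filter with all libraries. These 3 are therefore given as a description. In that fit 8.56% of all 13468 genes tested were called higher and 28.1% lower, beside which the members' count stands.

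Among the C/D members, Snord91a was the one whose groups did not overlap. It had been chosen for this pattern from an earlier look at these data, so its values are a description. Its level was 1.14, 0.351, 0.862, 1.10 and 1.85 RPKM in control libraries (3, 1, 2, 3 and 6 reads) and 2.17 to 3.98 RPKM in toxicant libraries, with a median of 2.64 (5 to 9 reads). The lowest toxicant library lay above the highest control, control 6. The means were 1.06 ± 0.542 RPKM (SD, n = 5) and 2.77 ± 0.657 RPKM (SD, n = 6), and the log2 difference was 1.12 ± 0.22 (SE). The pooled rate of reads was 2.53 times the control rate, with a 95% interval of 1.36 to 4.95 from counting error alone. Its host Tsr1 differed by -0.01 on the log2 scale.

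Snord15b, the U15 guide of ribosomal RNA methylation, was at 0.731, 0.225, 0.276, 0.708 and 0.396 RPKM in control libraries and at 0 to 3.97 RPKM in toxicant libraries, with a median of 1.95. Toxicant 1 had no read, and the other 5 toxicant libraries lay above the highest control. The log2 difference was 1.10 ± 0.44 (SE, limma adjusted p = 0.225), while its host Rps3, which encodes a ribosomal protein, differed by -0.32. Its neighbour in Rps3, Snord15a, is 64.5% identical and fell under the filter on low values.

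Snord22, the U22 RNA needed for ribosomal RNA processing, was read 6, 0, 1, 0 and 3 times in control libraries and 0 to 16 times in toxicant libraries, with a median of 7.5. Toxicant 1 and toxicant 2 had no read, so the groups overlapped although the highest values were all in the toxicant group. The means were 0.537 ± 0.699 RPKM (SD, n = 5) and 2.01 ± 1.79 RPKM (SD, n = 6), and the log2 difference was 1.03 ± 0.64 (SE, limma adjusted p = 0.307). Because Snord22 overlaps an exon of Snhg1, its reads may include the spliced host RNA, whose own log2 difference was 0.12.

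The other C/D members were lower in reads. Snord17, in Snx5, missed the filter at a mean of 0.497 RPKM. It had 1, 2, 0, 3 and 3 reads in control and 2 to 8 in toxicant libraries, and its pooled rate ratio was 2.78 with a counting interval of 1.25 to 6.76. Snord89 had a log2 difference of 0.64 ± 0.35 (SE, limma adjusted p = 0.278), with 5 of its 7 control reads in control 2. Snord55 had means of 0.519 and 1.08 RPKM and a log2 difference of 0.48 ± 0.34 (SE, limma adjusted p = 0.357). Snord14c, with 16 reads in all, differed by 0.25 ± 0.49 (SE, limma adjusted p = 0.713). Below the filter, Snord15a differed by 0.33, Snord83b by 0.22, Snord35a by 0.22 and Snord23 by 0.04, on 6 to 12 reads each.

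**Figure D3:**
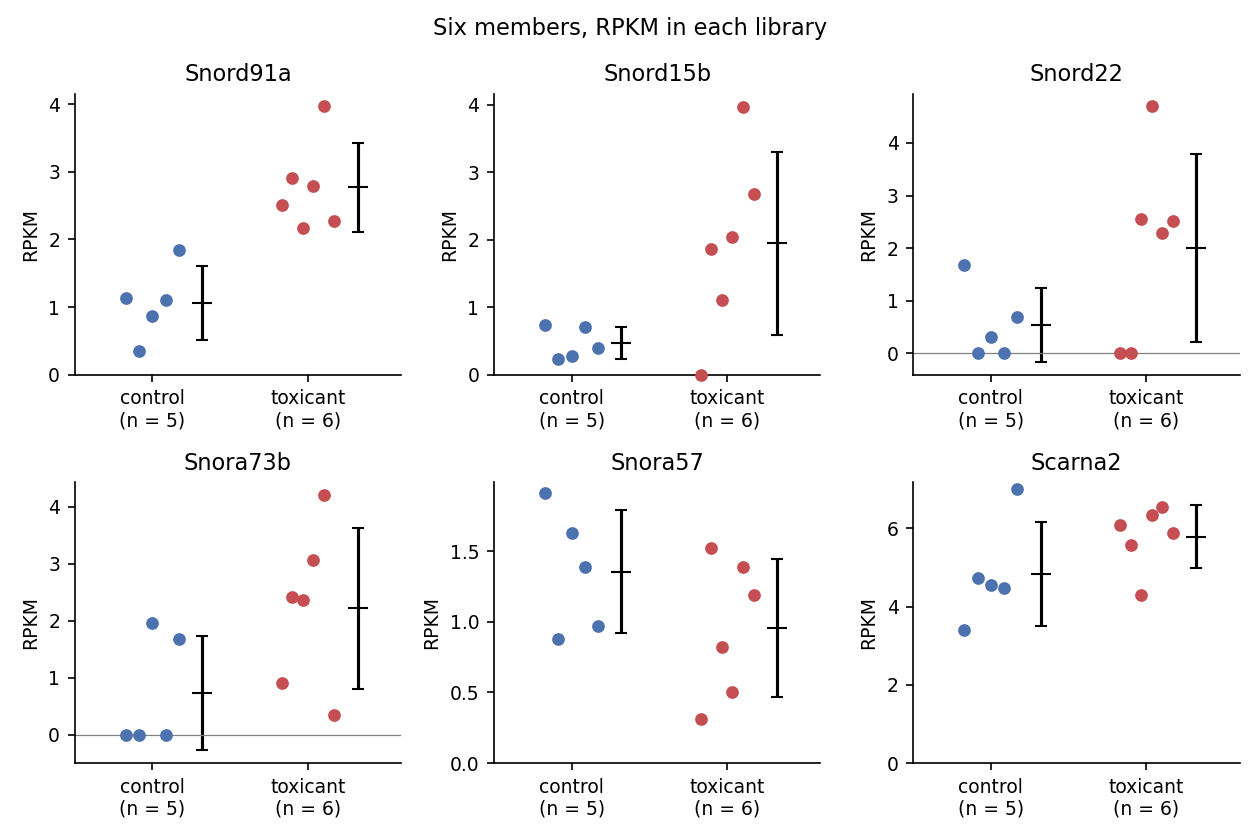
RPKM on the y axis for selected members, one point per library for 5 control and 6 toxicant libraries, with the mean and SD; an SD larger than its mean takes the bar below 0. Snord91a is the panel in which the groups do not overlap, with toxicant libraries at 2.17 to 3.98 RPKM and controls at 0.351 to 1.85 RPKM.

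Among the H/ACA members, Snora73b had the largest log2 difference, 1.35 ± 0.55 (SE, limma adjusted p = 0.227). It was read 0, 0, 10, 0 and 12 times in control libraries and 2 to 21 times in toxicant libraries, with a median of 11.5. The controls split into 3 libraries with no read and 2, control 3 and control 6, within the toxicant range. Its near copy Snora73a had 3, 1, 9, 0 and 2 reads in control and 0 to 14 in toxicant libraries, and a log2 difference of 0.26 ± 0.49 (SE, limma adjusted p = 0.707). Summed over both copies, which does not depend on how reads were divided between them, there were 37 reads in control and 93 in toxicant libraries. Per 100 M reads the pair took 10.6, 3.26, 76.2, 0 and 40.2 in control libraries and 37.3 to 111 in toxicant libraries, with a median of 56.5. The groups overlapped, and 1 toxicant library lay above control 3. Their shared host Snhg3 differed by -0.30 on the log2 scale.

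Snora57, a guide of ribosomal RNA pseudouridylation, lay in the other direction. It was at 1.91, 0.881, 1.62, 1.39 and 0.969 RPKM in control libraries and at 0.315 to 1.52 RPKM in toxicant libraries, with a median of 1.00. The groups overlapped, and the log2 difference was -0.39 ± 0.24 (SE, limma adjusted p = 0.303). Snora31, in Tpt1, had means of 0.314 and 0.807 RPKM and a log2 difference of 0.62 ± 0.31 (SE, limma adjusted p = 0.255). Snora41, in the elongation factor gene Eef1b2, differed by 0.58 and Snora43_1 by 0.32, and Snora34, in Kansl2, by -0.10, each with an adjusted p of 0.306 or more with limma. Snora30, below the filter, differed by -0.64. Besides the U17 pair, Snora41, Snora65, Snora30, Snora57 and the C/D member Snord14c have a copy at least 95% identical elsewhere in the annotation, and their values are uncertain to that extent.

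Of the Cajal body RNAs, Scarna2 was the most abundant member. It was at 3.41, 4.73, 4.55, 4.46 and 7.0 RPKM in control libraries (40 reads in control 1, the fewest) and at 4.29 to 6.55 RPKM in toxicant libraries (44 to 71 reads), with a median of 5.97. The highest library was control 6 and the groups overlapped, with a log2 difference of 0.26 ± 0.15 (SE, limma adjusted p = 0.284). The 95% interval of that difference from limma, which includes the spread between libraries, was -0.06 to 0.58. The pooled rate ratio was 1.17. Scarna13 had a control mean of 0.925 ± 0.139 RPKM (SD, n = 5) and a toxicant mean of 1.04 ± 0.436 RPKM (SD, n = 6), which overlapped, with a log2 difference of 0.06 ± 0.20 (SE, limma adjusted p = 0.827). Scarna10, which overlaps an exon of Ncapd2, had 24 of its 42 toxicant reads in toxicant 4 and differed by 0.22 ± 0.44 (SE, limma adjusted p = 0.719). Scarna17 differed by 0.05 and Scarna6, in Atg16l1, by -0.12.

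**Figure D4:**
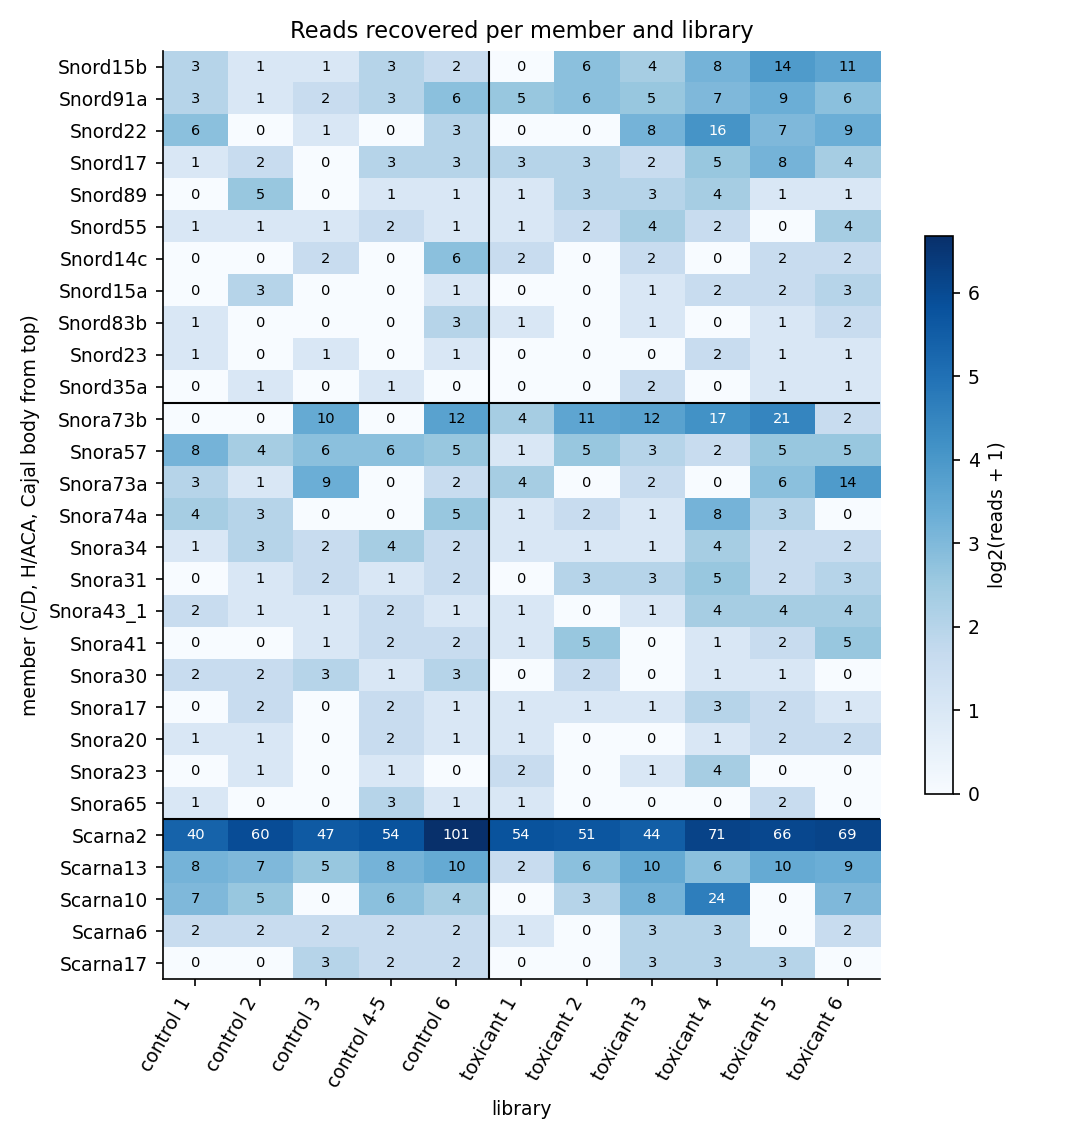
Recovered reads of each of the 29 members (rows, by class) in each of the 11 libraries (columns, control then toxicant), with the read count written in each cell and shaded by log2(reads + 1). Scarna2 has at least 40 reads in every library, while 14 members have fewer than 20 over all libraries.

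Of the 29 members, 24 had a same-strand host, 22 distinct genes, and 17 of the 24 lay in an intron while 7 overlapped an exon. By limma 0 hosts passed the adjusted threshold, and 1 host was higher (Ipo7) and 4 lower at an unadjusted p under 0.05, where 3.33% of all genes were higher and 17% lower. In all, 5 hosts had a log2 difference above 0 and 17 below, where 70% of all genes lay below 0, so these counts are near the background. The host median was -0.18 beside -0.11 for all genes. That median was -0.06 after median-ratio scaling, -0.03 after quantile normalization and -0.02 with the on-gene fraction as covariate. Ribosomal protein genes held 6 of the 24 members, 5 of them C/D box RNAs.

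**Figure D5:**
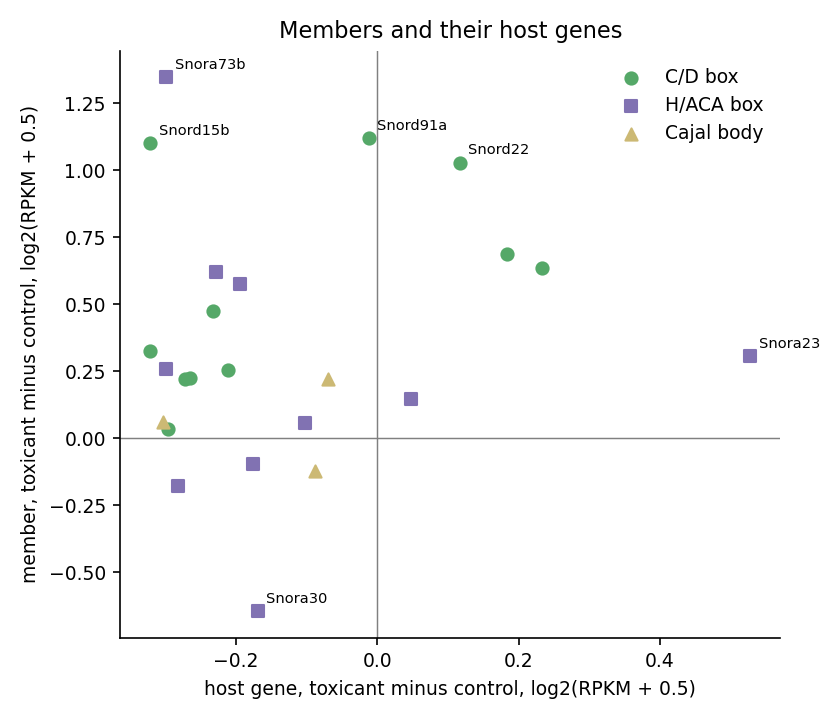
Log2 difference (toxicant minus control) of each member with a host on the y axis and of its host gene on the x axis, one point per member, coloured by class. Snord91a lies at 1.12 with its host Tsr1 at -0.01, and Snora73b at 1.35 with Snhg3 at -0.30.

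The protein genes of the pathway, from lists of the snoRNP core, its assembly factors and snoRNA processing factors, likewise gave 0 calls by limma among 40 genes, with 13 above 0, 27 below and a median of -0.12. At an unadjusted p under 0.05, 1 was higher (Znhit6, an assembly factor of C/D particles, 0.22 ± 0.07 SE) and 7 lower. Both counts are near the shares over all genes, 70% below 0 and 17% lower at that p. Of the 10 core genes 2 lay above 0 and 8 below. Snu13, the protein that first binds the C/D motif, was at 26.2 RPKM in control and 21.8 RPKM in toxicant libraries (log2 difference -0.26 ± 0.11 SE, limma adjusted p = 0.229). Wrap53, which directs RNAs to the Cajal body, was at 3.67 and 2.98 RPKM (-0.24 ± 0.11 SE, limma adjusted p = 0.245). The methyltransferase Fbl was at 4.84 and 4.08 RPKM. Of its partners, Nop58 was at 2.38 and 3.03 RPKM, while Nop56 differed by -0.11 on the log2 scale. The pseudouridine synthase Dkc1 was at 3.90 and 4.07 RPKM, and its partners Gar1 at 6.40 and 5.80 RPKM, Nhp2 at 21.6 and 19.4 RPKM and Nop10 at 21.1 and 18.4 RPKM. Coil, the scaffold of the Cajal body, was at 4.55 and 3.97 RPKM. The protein list's median was -0.0039 after median-ratio scaling.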

How the data were processed

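Hippocampal RNA of 12 mice was sequenced as single reads of 75 nt from poly(A)-selected RNA, per the labels' protocols. The deposited table holds 1 RPKM value per gene and library, computed by the authors, per the file headers. Aligner, counter, build and annotation: not given in the sources used here. Columns were matched to samples by the code in each sample's description.

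RPKM times GENCODE M21 exon length (GRCm38, 41675 of 41743 gene IDs matched) gave whole reads, from which depth, rates and exact 95% intervals of rate ratios were computed. Depth was 21.5 M to 34.8 M reads per library. Values were tested as log2(RPKM + 0.5) with limma 3.58.1 in R 4.3.3 (empirical Bayes with a trend, no covariate, two-sided). Benjamini-Hochberg adjustment ran over the 13493 genes that averaged 0.5 RPKM or more, with a threshold of 0.05. The code was run beforehand on simulated counts without shared differences between libraries. That run checks the code and says nothing of its power in these data. RPKM values are not counts, so count models served only as an alternative (voom). Hosts are same-strand genes that hold the whole member; sequences are GENCODE M21 transcripts matched by Ensembl ID.

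Named are Snord91a, the 5 highest members of each class, the 4 smallest p per direction of the C/D and H/ACA classes, members whose groups do not overlap, imprinted-cluster genes, hosts and the snoRNP core. Other members named were chosen after their values were seen. The members and lists were chosen with earlier results of these data known. Of 5 same-numbered pairs, 4 had deviations correlated over 0.1 and pair 3 did not (-0.30), so the numbers were not taken as pairs. Alternatives were other pseudocounts, filters, scalings and library sets, a covariate, the replicate block and leaving out each library. Class-total ratios and their alternatives were added after seeing the data.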

Additional observations from a re-analysis of the deposited data

Results flagged for a closer look

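In 3 of 40 groups of member values, 1 library stood apart from the rest by Dixon's criterion at 95%, where 2 are expected by chance. Snord89 was at 1.48 RPKM in control 2, with the other controls at 0 to 0.311 RPKM. Snord55 was at 0.866 RPKM in control 4-5, with the other controls at 0.363 to 0.507 RPKM, a gap of about 1 read. Scarna10 was at 2.73 RPKM in toxicant 4, with the other toxicant libraries at 0 to 0.994 RPKM.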

How the results depend on the processing

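Over all genes, limma called 1 gene higher with a pseudocount of 0.1, and 1 higher and 9 lower with the 12 columns as deposited. Leaving out one library at a time gave 0 to 1153 higher and 0 to 3779 lower, and 0 to 3 members higher, the largest counts being those without control 2. No other alternative called a member. The C/D median was 0.81 with a pseudocount of 0.1 and 0.33 to 0.62 with one library left out, and stayed above 0 in all 19 alternatives run; the H/ACA median did too (0.06 to 0.37), while the Cajal body median ran from -0.10 to 0.25. With one library left out, the ratio of class totals was 2.36 to 2.96 for C/D, 1.38 to 1.73 for H/ACA and 1.15 to 1.34 for Cajal body members. The host median was -0.055, -0.034 and -0.018, and the protein median -0.0039, -0.0220 and -0.0050, under median-ratio scaling, quantile normalization and the covariate. Directions turned for Scarna17 (-0.069 with a pseudocount of 0.1, -0.036 with 12 columns, -0.16 with the replicate block, -0.19 to 0.31 with one library left out), for Snord89 (-0.14) and Scarna10 (-0.24) with the covariate, for Scarna13 (-0.024 with the replicate block, -0.024 to 0.23 with one library left out), and with one library left out for Snora34 (-0.23 to 0.025) and Snora73a (-0.028 to 0.59); the cause was not tested. The replicate block gave a C/D median of 0.55 and changed no call. It rests on numbers whose pairwise correlations ran from -0.30 to 0.62, with 1 of 5 pairs best matched to its own number. Toxicant 5 has no control of its number there, so the block gives the same log2 differences as leaving toxicant 5 out. Read counts limit the precision of most members.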
